A study of Mus musculus with 9 samples.

Results

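Rbbp4, Rbbp7, Ezh1, Ezh2, Eed, Suz12, Jarid2, Mtf2, Hdac1 and Hdac2 encode subunits of the Polycomb repressive complex PRC2 and of the deacetylase complexes that share its histone-binding subunits. They were taken by symbol, as 10 of the 23453 gene symbols in the deposited count table, and all 10 passed the filter on low counts in every comparison. The libraries are bulk RNA-seq of wild-type mouse epiblast-like cells (EpiLCs), an in vitro counterpart of the early post-implantation epiblast, in 3 states with 3 libraries each. EpiLC libraries came from naive embryonic stem cells kept for 48 h in N2B27 medium with 1% KSR (a serum replacement), FGF2 and Activin A. For the other states, EpiLCs were cultured for a further 24 h, either in basal N2B27 (aEpiLC, the anterior-like state) or with Activin and CHIR99021, an agonist of the Wnt pathway (pEpiLC, the posterior-like state). The methods of the study give 1% KSR in the medium of both. No library was kept in EpiLC medium for the further 24 h. Every comparison with EpiLC thus joins longer culture with a change of medium, and these cannot be told apart. No cell line, batch or date was named for these libraries, and nothing says whether replicates came from separate cultures, so the p-values measure only the spread between these libraries, which may be technical.

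PRC2 places methyl groups on H3K27, a mark found on silent developmental genes, and pluripotent cells without it fail to differentiate properly. EZH1 or EZH2 is the catalytic subunit, EED reads the finished mark and stimulates the enzyme, and SUZ12 is the scaffold on which the complex assembles. MTF2 and JARID2 belong to alternative forms of PRC2 and help to bring it to CpG islands. RBBP4 and RBBP7 are closely related WD-repeat proteins that hold histones, and both sit in PRC2 and also in NuRD and SIN3, where HDAC1 and HDAC2 remove acetyl groups from histones.

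Rbbp7 and Rbbp4 parted in these libraries, and reads of 2 such similar genes can be confused, so the letters that separate them are shown first. Their longest coding sequences have the same length, 1275 bp, and were identical at 78.4% of aligned bases, with no shared run longer than 20 bp. A pair of primers served the study for quantitative PCR of Rbbp7. Each has 30 bases, and both match inside the coding sequence, in exon 5 (chrX:162771075-162771104) and exon 6 (chrX:162772221-162772250) of its GENCODE transcript on GRCm38. They are given here on the transcript strand with the most similar stretch of Rbbp4, and capitals mark the bases that differ, 12 at the forward and 9 at the reverse primer site.
Rbbp7 forward site: TgatCtTAgATtAAgAggTcaCcaAaagga
Rbbp4 at the forward site: CgatTtGCgTCtCCgTggAcaTcaGaagga
Rbbp7 reverse site: aTatAaAtgcagGAccaaaGgaaggCaaAA
Rbbp4 at the reverse site: aCatCaGtgcagTTccaaaAgaaggAaaGG
Ezh2 and Ezh1 shared 69.3% of aligned coding bases and Hdac2 and Hdac1 75.9%, with longest identical runs of 17 bp in both pairs. Other annotated transcripts were closer. The copies Gm10093 and Gm4864 matched Hdac1 at 99.4% over 1444 bp and at 94.3% over 1470 bp, and the second was in the count table with a mean of 19.2 CPM (counts scaled to a common library total). Gm6382 matched Rbbp7 at 97.1% over 942 bp and held the forward primer's sequence. On the opposite strand, Txlng overlapped exons of Rbbp7 by 174 bp and Tmed5 those of Mtf2 by 395 bp, with means of 63.0 and 29.7 CPM. Exons of Rbbp4 were overlapped there by Sync (782 bp, 0.80 CPM) and by Gm26722 (796 bp), which was not in the count table. The copy Gm4800 matched Rbbp4 at 90.9% over 1280 bp, with a mean of 0.08 CPM. Eed, Ezh2 and Suz12 had shorter overlaps, of 261, 174 and 178 bp. Whether the libraries were stranded was not given in the sources used here. Counts of all these genes, Rbbp7 and Rbbp4 among them, may thus hold an uncertain share of reads from these neighbours and copies.

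RefSeq promoters on GRCm38.p6 were at hand for 9 of the 10 genes, 11 promoters in all. The 250 bases before the start of Rbbp7 and of Rbbp4 are shown because the levels of this pair parted in pEpiLC. Capitals mark the letters CCAAT on either strand, the box bound by the factor NF-Y.
Rbbp7, plus strand, chrX:162760122-162760371: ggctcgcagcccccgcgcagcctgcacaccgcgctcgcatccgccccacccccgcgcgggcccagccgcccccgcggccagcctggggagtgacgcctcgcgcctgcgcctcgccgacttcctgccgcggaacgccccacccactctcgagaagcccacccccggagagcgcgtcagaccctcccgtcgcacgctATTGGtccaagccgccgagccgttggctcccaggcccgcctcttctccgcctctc
Rbbp4, minus strand, chr4:129335371-129335620: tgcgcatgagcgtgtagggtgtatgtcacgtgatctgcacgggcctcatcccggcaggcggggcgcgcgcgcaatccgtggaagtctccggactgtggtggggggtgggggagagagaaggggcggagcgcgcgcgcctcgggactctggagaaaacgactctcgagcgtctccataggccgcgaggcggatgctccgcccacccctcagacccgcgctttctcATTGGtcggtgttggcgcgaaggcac
The marked box began 55 bases before the start in Rbbp7 and 26 bases before it in Rbbp4, and a second box in Rbbp7 lay across the start. Within 250 bases before and 50 bases after the start, the Rbbp7 promoter held 75.7% G and C and 38 CpG pairs, and the Rbbp4 promoter 68.7% and 39, against medians of 52.7% and 7 over 32851 promoters. CCAAT was in 8 of the 11 promoters of these genes and in 37.4% of all promoters. TTTNNCGC, a form of the E2F site, was in 5.17% of all promoters and in 2 of these 11, at 219 bases before the start of Suz12 and 3 bases past that of Ezh2, on the strand of the gene. CTTTGAT, the core bound by the Wnt effectors TCF and LEF, was in 3.73% of all promoters and in 0 of the 11 on either strand. None of the 3 motifs contains another.

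Total counts lay between 20560583 and 23417935 per library, and levels are given as TMM-normalized CPM. All 6 posterior markers examined were higher in pEpiLC than in aEpiLC, with a summed level of 892 to 2437 CPM against 22.8 to 38.7, and the 4 anterior markers together lay at 17.8 to 51.3 CPM against 144 to 165. pEpiLC replicate 1 stood apart. It differed by over 4-fold from replicates 2 and 3 at 323 and 333 genes, where other pairs within a state differed at 57 to 76. The summed level of 6 markers listed for extraembryonic endoderm was 69.5 CPM in it and 5.84 to 14.8 in the other 8 libraries. Gata6 was at 46.6 CPM, Gata4 at 12.4 and Sox17 at 4.68 in it, against at most 0.42, 0.506 and 0.308 in the other 8. Dab2, the largest part of the sum in the other libraries, was not raised. It was at 5.92 CPM in replicate 1, at 6.48 and 5.20 in replicates 2 and 3 and at 8.16 to 13.7 in EpiLC and aEpiLC. Sox7 and Apoa1 were at 0 in replicate 1, so the list as a whole was not raised. Larger differences in CPM lay in markers of the epiblast and of posterior fate. T was at 1089 CPM in replicate 1 and at 204 and 219.5 in replicates 2 and 3, and Mixl1 at 645, 37.4 and 35.9, so that the highest posterior sum was that of replicate 1. Nanog was at 105, 248 and 255 CPM and Dnmt3b at 745, 1596 and 1394 in the same order. Afp and Ttr were not analysed here, and 5 fibroblast markers summed to 13.4 to 24.2 CPM over the 9 libraries, though not all moved alike. Against EpiLC, Dcn fell in pEpiLC (4.81 to 7.26 and 0.184 to 0.304 CPM, adjusted p = 8.1e-05) and Col1a2 rose (1.32 to 1.96 and 4.17 to 10.2 CPM, 0.00474). Leaving out pEpiLC replicate 1 was applied to the listed genes beyond these 10 after the data had been seen. Values without it are given for the calls of the 10 genes and for some of the other listed genes. In bulk samples such as these, fewer cells of a type and less RNA per cell cannot be told apart.

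**Figure D1:**
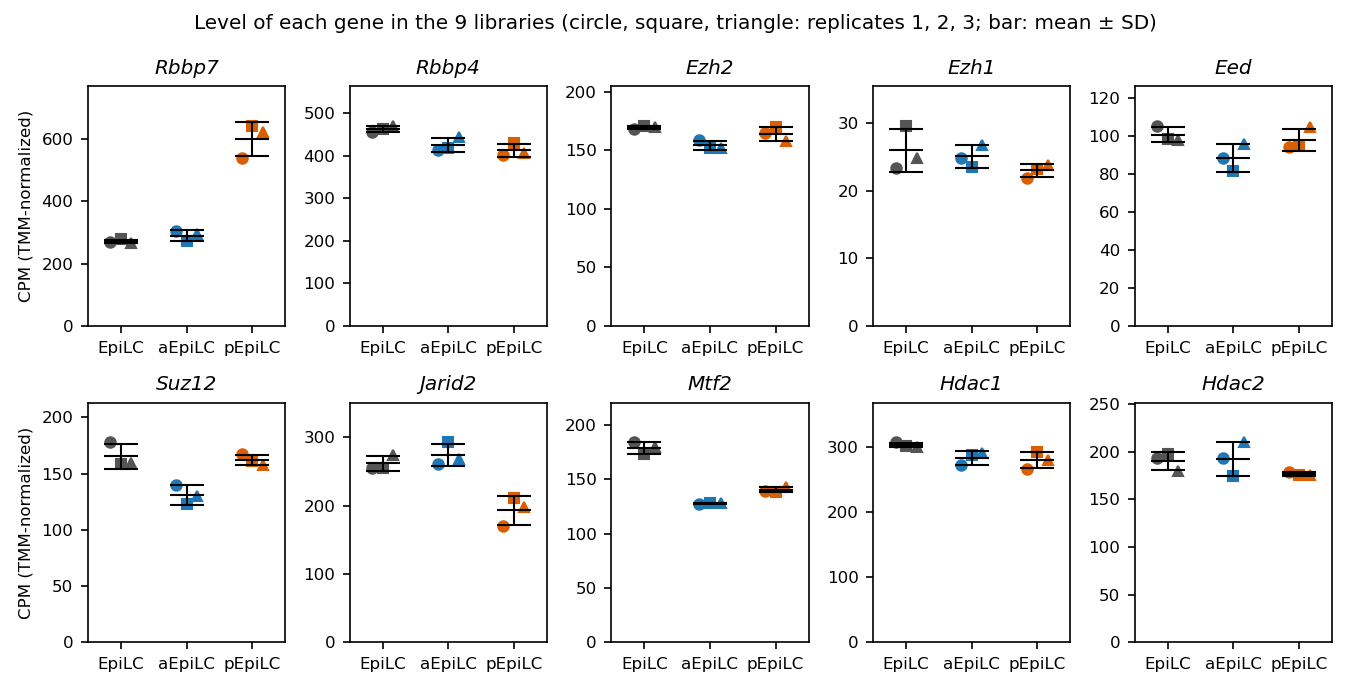
Level of each of the 10 genes in TMM-normalized CPM (y axis, from 0) in EpiLC, aEpiLC and pEpiLC libraries (x axis). Circles, squares and triangles are replicates 1, 2 and 3, and bars show the mean and SD of 3 libraries. Rbbp7 stood at 540 to 643 CPM in pEpiLC and at 267 to 304 CPM in the other 6 libraries, and Jarid2 was lowest in pEpiLC.

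The histone-binding subunits moved apart in the posterior-like state. Rbbp7 (chrX:162760402-162779092, plus strand) rose about 2-fold in pEpiLC against either other state, while Rbbp4 (chr4:129307100-129335370, minus strand) differed little anywhere. In EpiLC replicates 1, 2 and 3, Rbbp7 was at 270.2, 278 and 267 CPM. It was at 304, 272 and 295 CPM in aEpiLC and at 540, 643 and 623 CPM in pEpiLC. All pEpiLC libraries were above the other 6, and the aEpiLC and EpiLC libraries overlapped. The mean was 272 ± 5.41 CPM in EpiLC, 290.3 ± 16.7 in aEpiLC and 602 ± 54.4 in pEpiLC (SD, n = 3 each). Against aEpiLC this was a 2.07-fold increase (95% interval 1.81 to 2.37) at a log2 fold change of 1.05 ± 0.08 (SE) and an adjusted p of 0.000361 by the quasi-likelihood test of edgeR. Against EpiLC it was 2.25-fold (2.00 to 2.53) with an adjusted p of 6.19e-05. Of all genes tested, 90.2% had a smaller absolute log2 fold change between pEpiLC and aEpiLC. From EpiLC to aEpiLC the log2 fold change of Rbbp7 was 0.10, with a 95% interval of -0.03 to 0.22 and an adjusted p of 0.196. Without pEpiLC replicate 1, the lowest of the 3, the log2 fold changes were 1.13 against aEpiLC and 1.25 against EpiLC. Rbbp7 is also one of the genes the study chose for their correlation with Nanog in single cells of embryos, which are other samples than these. From its bulk RNA-seq of aEpiLC and pEpiLC the study already reported these genes as higher in pEpiLC, so the increase here is not independent of that report. By quantitative PCR it also listed Rbbp7 among those up after 3 h in pEpiLC medium.

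Rbbp4 was at 455, 462 and 470 CPM in EpiLC, 412, 419 and 444 in aEpiLC and 402, 429 and 407 in pEpiLC. Every EpiLC library was above the other 6. The log2 fold change of pEpiLC against EpiLC was -0.14 ± 0.05 (adjusted p = 0.0497), a small decrease at the edge of the threshold. The call was lost without any 1 of the EpiLC libraries (adjusted p of 0.0983, 0.121 and 0.153 without replicates 1, 2 and 3) or without pEpiLC replicate 3 (0.143), and also with the likelihood ratio test of edgeR (0.150) or with no filter on low counts (0.0954). Without pEpiLC replicate 1 it was -0.12 (0.0467). From EpiLC to aEpiLC the difference was -0.12 (interval -0.24 to 0.00, adjusted p = 0.0957), which passed only without aEpiLC replicate 3 (0.0334). Between pEpiLC and aEpiLC it was -0.04 (interval -0.18 to 0.10).

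Within a library, the ratio of 2 genes does not depend on how the library is scaled. The log2 ratio of Rbbp7 to Rbbp4 counts was -0.75, -0.73 and -0.81 in EpiLC, -0.44, -0.62 and -0.59 in aEpiLC and 0.43, 0.58 and 0.62 in pEpiLC. The 3 states did not overlap. The ratio was 2.13-fold higher in pEpiLC than in aEpiLC, 2.48-fold higher than in EpiLC, and 1.16-fold higher in aEpiLC than in EpiLC. In an exact two-sided permutation test, 3 libraries against 3 cannot give a p below 0.1, which each of these differences had (adjusted p = 0.2 over 12 tests of 4 gene pairs), so no ratio could pass 0.05 in this design. With each library left out in turn, the log2 difference of the Rbbp7 to Rbbp4 ratio was 1.06 to 1.15 for pEpiLC against aEpiLC, 1.27 to 1.37 for pEpiLC against EpiLC and 0.16 to 0.25 for aEpiLC against EpiLC.

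**Figure D2:**
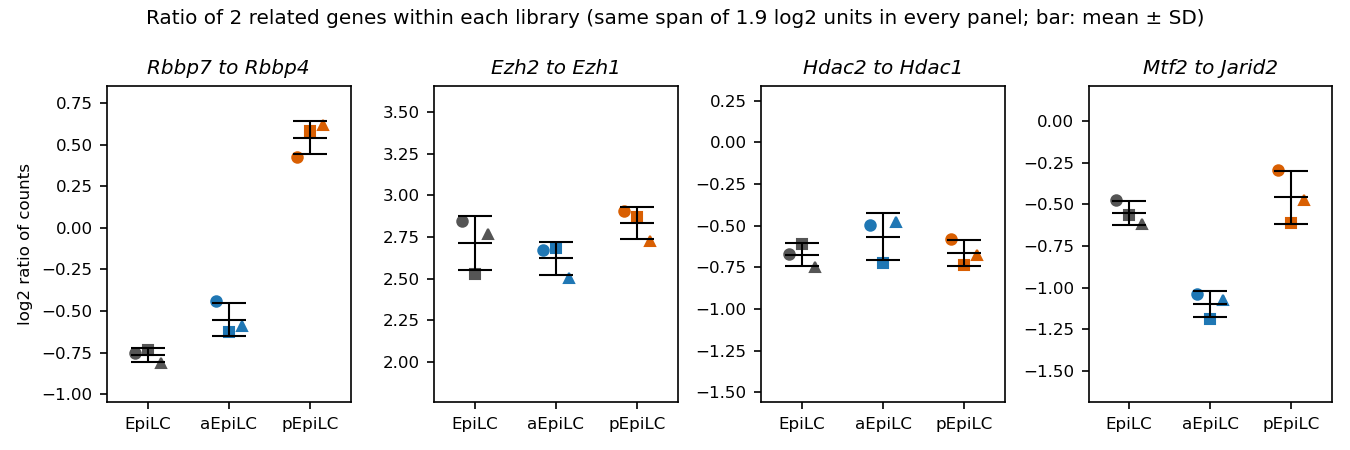
Log2 ratio of the counts of 2 related genes (y axis) in each library of the 3 states (x axis), with the mean and SD of 3 libraries. All panels span the same number of log2 units, so the step of Rbbp7 to Rbbp4 in pEpiLC and the dip of Mtf2 to Jarid2 in aEpiLC can be compared with the flatter Ezh2 to Ezh1 and Hdac2 to Hdac1.

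Neither catalytic subunit passed the test in any comparison. Ezh2 (chr6:47530139-47595341, minus strand), the main H3K27 methyltransferase of dividing cells, was at 168, 171 and 169.7 CPM in EpiLC, 159, 152 and 152 in aEpiLC and 165, 169.8 and 158 in pEpiLC. The aEpiLC libraries lay below those of EpiLC without overlap, by a log2 fold change of -0.14 (interval -0.25 to -0.02, adjusted p = 0.0585). This difference passed only with RLE size factors (0.0488). Ezh2 differed by 0.09 between pEpiLC and aEpiLC (interval -0.05 to 0.23), and between pEpiLC and EpiLC by -0.02 (interval -0.14 to 0.09). Ezh1 (chr11:101191115-101226463, minus strand), the paralogue that prevails in resting cells, was at 23.4, 29.6 and 24.8 CPM in EpiLC, 24.8, 23.6 and 26.8 in aEpiLC and 22.0, 23.2 and 23.9 in pEpiLC, and its libraries overlapped in all 3 comparisons. Its widest interval reached from -0.40 to 0.10, for pEpiLC against EpiLC. The log2 ratio of Ezh2 to Ezh1 was 2.71 ± 0.16 in EpiLC, 2.62 ± 0.10 in aEpiLC and 2.84 ± 0.10 in pEpiLC. Only between pEpiLC and aEpiLC did the ratios not overlap (1.16-fold higher in pEpiLC, exact permutation p = 0.1, adjusted p = 0.2).

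The core subunits Suz12 and Eed were lower in the anterior-like state than in EpiLC, though most alternative analyses lost the call of Eed. Suz12 (chr11:79993106-80034123, plus strand) fell from EpiLC to aEpiLC and was higher in pEpiLC than in aEpiLC. It was at 178, 159 and 159 CPM in EpiLC, 140.1, 123 and 130.4 in aEpiLC and 167, 161 and 158 in pEpiLC. The aEpiLC libraries were the 3 lowest, and those of EpiLC and pEpiLC overlapped. From EpiLC to aEpiLC the log2 fold change was -0.33 ± 0.07 (adjusted p = 0.00142), and pEpiLC was 1.24-fold above aEpiLC (interval 1.11 to 1.38, log2 fold change 0.31 ± 0.07, adjusted p = 0.0241). Between pEpiLC and EpiLC the interval ran from -0.15 to 0.14. The higher level in pEpiLC than in aEpiLC lost its call without aEpiLC replicate 2 (0.26, adjusted p = 0.102) or 3 (0.30, 0.0831), or without pEpiLC replicate 2 (0.31, 0.0609) or 3 (0.32, 0.056), and kept it without pEpiLC replicate 1 (0.29, 0.0138). The same 3 aEpiLC libraries entered both comparisons.

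Eed (chr7:89954654-89980983, minus strand) was at 105, 98.8 and 98.3 CPM in EpiLC, 88.5, 81.5 and 96.1 in aEpiLC and 94.3, 95.6 and 105 in pEpiLC. Every aEpiLC library was below every EpiLC library, and pEpiLC overlapped both. The decrease from EpiLC to aEpiLC was slight (log2 fold change -0.18 ± 0.07, adjusted p = 0.0455). It passed in 4 of 12 alternative analyses, and the call was lost without EpiLC replicate 1 (0.156), 2 (0.0778) or 3 (0.073) and without aEpiLC replicate 1 (0.0971) or 2 (0.208), as it was with no filter on low counts (0.0604) or in a fit of all 9 libraries (0.0748). The difference between pEpiLC and aEpiLC was 0.15 (interval -0.04 to 0.34, adjusted p = 0.26).

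The accessory subunits followed different courses. Jarid2 (chr13:44729474-44921643, plus strand), which ties PRC2 to chromatin that carries ubiquitylated H2A, was lower in pEpiLC than in both other states. It was at 255, 256 and 275 CPM in EpiLC, 261, 293 and 269 in aEpiLC and 170.2, 211 and 198 in pEpiLC. All 3 pEpiLC libraries were below the other 6, and EpiLC and aEpiLC overlapped. The level in pEpiLC was 0.705 of that in aEpiLC (interval 0.609 to 0.816, log2 fold change -0.50 ± 0.09, adjusted p = 0.0118) and 0.75 of that in EpiLC (interval 0.656 to 0.858, adjusted p = 0.00623). Without pEpiLC replicate 1, which had the lowest level, the log2 fold changes were -0.41 (adjusted p = 0.00173) and -0.33 (0.00018). The call against aEpiLC was lost without aEpiLC replicate 2 (-0.45, adjusted p = 0.0623). From EpiLC to aEpiLC the difference was 0.07 (interval -0.07 to 0.20).

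Mtf2 (chr5:108065674-108109004, plus strand), a Polycomb-like protein that binds unmethylated CpG DNA, fell in both later states. It was at 184, 173 and 179 CPM in EpiLC, 127, 128 and 128 in aEpiLC and 139, 138 and 143 in pEpiLC. No libraries of any 2 states overlapped. The decrease from EpiLC to aEpiLC, to 0.717 of the EpiLC level (interval 0.659 to 0.779), had a log2 fold change of -0.48 ± 0.06 and an adjusted p of 1.38e-05. In pEpiLC the level was 0.797 of that in EpiLC (interval 0.735 to 0.865, adjusted p = 0.00224), with a log2 fold change of -0.32 (0.000215) without pEpiLC replicate 1. Mtf2 differed by 0.13 between pEpiLC and aEpiLC (interval 0.01 to 0.26, adjusted p = 0.143). The log2 ratio of Mtf2 to Jarid2 was -0.55 ± 0.07 in EpiLC, -1.10 ± 0.08 in aEpiLC and -0.46 ± 0.16 in pEpiLC (SD, n = 3 each). The aEpiLC ratios were below the other 6, at 0.684 of the EpiLC ratio, and the pEpiLC ratio was 1.56-fold that of aEpiLC (exact permutation p = 0.1 and adjusted p = 0.2 for both). EpiLC and pEpiLC ratios overlapped.

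The deacetylases passed in no comparison. Hdac1 (chr4:129516104-129542713, minus strand) was at 307, 301 and 301 CPM in EpiLC, 272, 288 and 291 in aEpiLC and 267, 292 and 280.2 in pEpiLC. The EpiLC libraries were the 3 highest, by -0.09 on the log2 scale against each later state (intervals -0.21 to 0.03 in both comparisons, adjusted p = 0.184 in both). Hdac1 differed by -0.02 between pEpiLC and aEpiLC (interval -0.16 to 0.12). Hdac2 (chr10:36974544-37001889, plus strand) was at 193, 198 and 179 CPM in EpiLC, 193, 174 and 209.6 in aEpiLC and 179, 175 and 176 in pEpiLC. Its log2 fold change was -0.12 for pEpiLC against aEpiLC (interval -0.30 to 0.05), 0.02 for aEpiLC against EpiLC (interval -0.14 to 0.17) and -0.08 for pEpiLC against EpiLC (interval -0.21 to 0.04), where the libraries did not overlap. The log2 ratio of Hdac2 to Hdac1 lay between -0.75 and -0.48 over the 9 libraries and overlapped in each pair of states.

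Counted together, 2 of the 10 genes rose in pEpiLC against aEpiLC (Rbbp7 and Suz12) and 1 fell (Jarid2). Of the 15198 genes tested in that comparison, 6.28% rose and 9.3% fell. Of the called genes Rbbp7 alone changed by 1 or more on the log2 scale, as did 7.29% of all genes, and the libraries of 4 of the 10 did not overlap, as at 38.8% of all genes. From EpiLC to aEpiLC, 0 of 10 rose, where 24% of 15301 genes did, and 3 fell (Eed, Suz12 and Mtf2), where 22.6% did. The likelihood ratio test of edgeR and DESeq2 also called 0 higher, where they called 3804 and 3327 of all genes higher. At an unadjusted p under 0.05, 0 were higher by any of these 3 tests. No share over all genes was counted at an unadjusted p, here or for the lists below. None reached an absolute log2 fold change of 1 in that comparison, which 12.5% of all genes did while passing the test, and 6 of 10 did not overlap, against 56.3% of all genes. For pEpiLC against EpiLC, 1 rose (Rbbp7) against 22.8% of 15288 genes, and 3 fell (Rbbp4, Jarid2 and Mtf2) against 21.4%. In that comparison 1 of the 10 passed with a log2 fold change of at least 1, against 15.8% of genes, and 6 did not overlap, against 58.7%. The median absolute log2 fold change of the 10 genes was 0.13, 0.11 and 0.12 in the 3 comparisons in this order, beside 0.22, 0.29 and 0.35 over all genes tested. Their median signed values were 0.04, -0.11 and -0.09, beside 0.01, 0.00 and 0.02. Without pEpiLC replicate 1, the numbers of these genes called in each direction did not change in either comparison of pEpiLC.

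**Figure D3:**
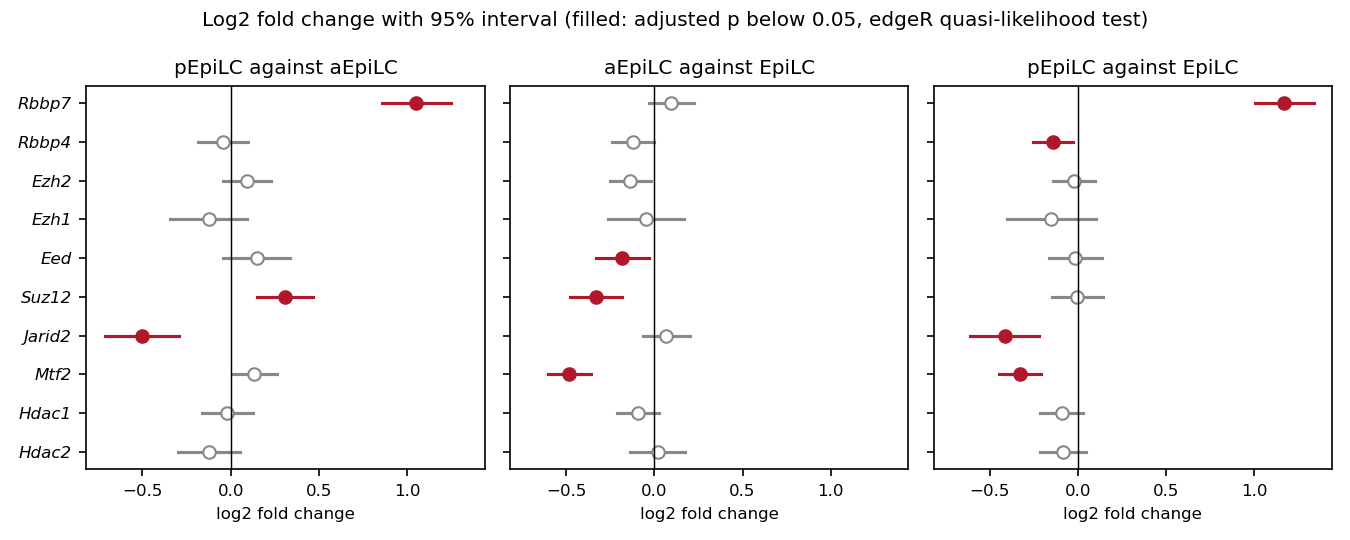
Log2 fold change (x axis) of the 10 genes (y axis) in 3 comparisons, as a point with its 95% interval from the edgeR quasi-likelihood fit, filled where the adjusted p was below 0.05. Rbbp7 is the only gene beyond 1, at 1.05 and 1.17 in the panels of pEpiLC. The others lie between -0.50 and 0.31.

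Levels of different genes were set side by side per kilobase of annotated exons (all exons of a gene joined). In EpiLC the order ran from Rbbp7 (93.5 CPM per kb) and Hdac1 (88.0) through Rbbp4 (52.9), Hdac2 (42.5), Suz12 (33.4), Mtf2 (31.3), Jarid2 (26.9), Eed (26.3) and Ezh2 (25.4) to Ezh1 (3.49). Suz12 and Mtf2 overlapped as neighbours in this order, as did Jarid2 and Eed. In aEpiLC Rbbp7 (99.8), Hdac1 (82.3), Rbbp4 (48.6) and Hdac2 (43.0) again came first. Jarid2 (28.2), Suz12 (26.5), Eed (23.2) and Ezh2 (23.1) followed, each overlapping its neighbour, with Mtf2 (22.4) just below them and Ezh1 at 3.37. In pEpiLC Rbbp7 led at 207 CPM per kb, ahead of Hdac1 at 81.2, and Jarid2 took the ninth place at 19.9. Eed, Ezh2 and Mtf2 (25.7, 24.6 and 24.6) overlapped as neighbours, and Ezh1 was last at 3.09. The order depends on the length used. Per kilobase of the longest coding sequence, Rbbp4 stood first in EpiLC and aEpiLC (363 and 334 CPM per kb, against 213 and 228 for Rbbp7) and Rbbp7 in pEpiLC (472 against 323). Per kilobase of the longest transcript, Hdac1 stood first in EpiLC and aEpiLC (149 and 139) and Rbbp7 in pEpiLC (268). In aEpiLC the libraries of Hdac1 (133 to 143) overlapped those of Rbbp7 (121 to 136) by this length. By each of the 3 lengths Rbbp7 led in pEpiLC and Ezh1 was last in every state.

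**Figure D4:**
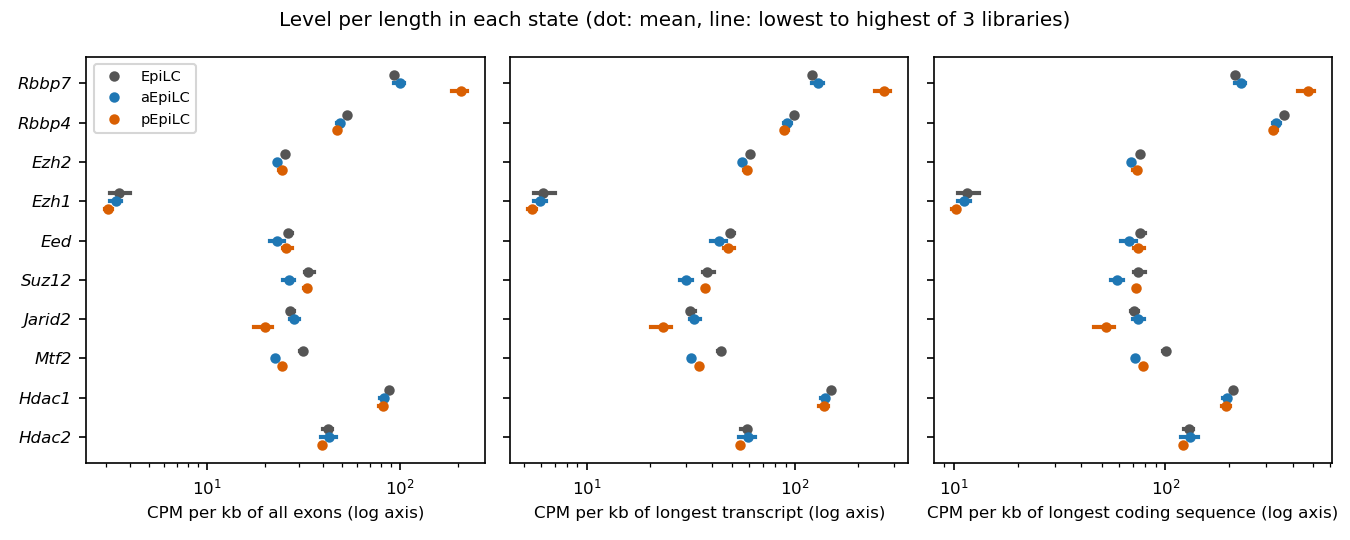
Level per length of the 10 genes (y axis) in each state, in CPM per kilobase on a log axis (x axis), for 3 ways of measuring gene length. Dots are means and lines reach from the lowest to the highest of 3 libraries. Ezh1 lies far below the other 9 genes in every panel, and Rbbp7 in pEpiLC is the highest value of each panel.

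The genes nearest to Rbbp7 in profile were those with the smallest root mean square difference over the 9 libraries between log2 CPM values centred on each gene's mean, among 10728 genes with a mean of at least 5 CPM. They were Ndufaf4 (0.0781), Acsl3 (0.109), Kctd6 (0.13), Echdc2 (0.138) and Plekhf2 (0.141). Ndufaf4 was at a mean of 33.0, 35.7 and 71.7 CPM in EpiLC, aEpiLC and pEpiLC. Nearest to Ezh2, by the same measure, were Cul3 (0.0226), Ccna2 (0.0277), Sde2 (0.028), Maco1 (0.031) and Adnp2 (0.0332). Ccna2, which encodes cyclin A2, had means of 250.4, 228 and 247 CPM in the same order of states. These are descriptions over libraries that share their state and depth.

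Around these 10 genes, 71 others of the same or related complexes were listed, and all were tested. In pEpiLC against aEpiLC, 3 of them rose and 6 fell, or 4.23% and 8.45%, beside 6.28% and 9.3% of all genes. From EpiLC to aEpiLC, 12 rose and 23 fell, or 16.9% and 32.4%, beside 24% and 22.6%. For pEpiLC against EpiLC 11 rose and 18 fell, or 15.5% and 25.4%, beside 22.8% and 21.4%. The same shares of all genes are the background of the counts of each complex and of the proliferation genes. Their median log2 fold changes were -0.02, -0.06 and -0.05, beside 0.01, 0.00 and 0.02 over all genes. The counts between pEpiLC and aEpiLC were sensitive to single libraries, at 0 to 1 higher and 0 to 1 lower without any 1 aEpiLC library, 4 and 11 without pEpiLC replicate 1, 2 and 2 without pEpiLC replicate 2, and 1 and 2 without pEpiLC replicate 3. Fewer also rose without EpiLC replicate 2 from EpiLC to aEpiLC (7) and without EpiLC replicate 1 or 2 for pEpiLC against EpiLC (7 each). The test mattered too. In a fit of all 9 libraries 7 rose and 17 fell from EpiLC to aEpiLC, and 4 were higher and 10 lower in pEpiLC than in aEpiLC, as by DESeq2.

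Among 7 further PRC2 accessory genes, 1 rose and 4 fell from EpiLC to aEpiLC. Aebp2, a partner of JARID2 in PRC2, rose from 92.8 to 115 CPM (log2 fold change 0.31 ± 0.09, adjusted p = 0.0171), a call that was lost without aEpiLC replicate 1 or EpiLC replicate 2 or 3. Phf1, a Polycomb-like relative of MTF2, fell from 7.93 to 4.40 CPM (-0.84 ± 0.15, 0.000547), and Epop, which links PRC2 to Elongin, fell from 77.6 to 51.1 CPM (-0.60 ± 0.12, 0.000998). Phf1 was higher again in pEpiLC than in aEpiLC, at 7.67 CPM (0.80 ± 0.15, adjusted p = 0.012). For pEpiLC against EpiLC 3 of the 7 fell, among them Lcor, from 30.4 to 16.9 CPM (-0.82 ± 0.14, 0.00302, and -0.98 without pEpiLC replicate 1). Between pEpiLC and aEpiLC 1 of the 7 rose and 1 fell. There 0 were called without aEpiLC replicate 1 or 2, and 1 rose and 0 fell without aEpiLC replicate 3 or pEpiLC replicate 2 or 3. Without pEpiLC replicate 1, 2 rose and 2 fell, with Epop higher (0.36, adjusted p = 0.0473) and Lcor lower (-0.40, 0.0263).

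PRC1, the complex that ubiquitylates H2A at Polycomb targets, was followed through 23 genes. Between pEpiLC and aEpiLC 1 rose and 1 fell, from EpiLC to aEpiLC 4 rose and 6 fell, and for pEpiLC against EpiLC 5 rose and 6 fell. These counts moved with single libraries. With pEpiLC replicate 1 left out, 1 was higher and 4 were lower than in aEpiLC (Phc1, Cbx7, Cbx2 and Bcorl1). Without any 1 aEpiLC library 0 were called in either direction there, and 0 rose without pEpiLC replicate 2 or 3. Against EpiLC, 2 rose in pEpiLC without EpiLC replicate 1 or 2 and 3 without pEpiLC replicate 3, and 4 fell from EpiLC to aEpiLC without EpiLC replicate 3. Phc1 and Phc2, which encode related Polyhomeotic subunits that polymerize PRC1, moved in opposite directions in pEpiLC against EpiLC. Phc2 rose from 21.3 CPM in EpiLC to 46.8 in aEpiLC (1.14 ± 0.09, adjusted p = 4.76e-07) and 59.0 in pEpiLC (1.49 ± 0.20, 0.00111, and 1.22 without pEpiLC replicate 1). Between pEpiLC and aEpiLC Phc2 did not pass (0.34, adjusted p = 0.299, and 0.07 without pEpiLC replicate 1). Phc1 was at 623 CPM in EpiLC and 299.6 in pEpiLC (-1.03 ± 0.20, 0.00554), and at 602 in aEpiLC (pEpiLC against aEpiLC -1.01 ± 0.20, 0.0173). Without pEpiLC replicate 1 its log2 fold changes were -0.80 against EpiLC and -0.77 against aEpiLC. Cbx7, a chromodomain subunit that reads methylated H3K27, fell from 96.7 CPM in EpiLC to 70.5 in aEpiLC (-0.45 ± 0.06, 4.04e-05) and 38.4 in pEpiLC (-1.31 ± 0.28, 0.00812). With pEpiLC replicate 1 left out, Cbx7 was lower by a log2 fold change of -1.0 against EpiLC and of -0.57 against aEpiLC (adjusted p = 0.000308), where with all libraries it was -0.88 (0.0763). Yaf2, which marks non-canonical PRC1, rose from 14.4 CPM in EpiLC to 23.1 in pEpiLC (0.71 ± 0.11, 0.00207) and was above aEpiLC, at 17.2 CPM (0.43 ± 0.11, 0.0397).

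Of 11 further NuRD genes, 2 rose and 5 fell from EpiLC to aEpiLC, 2 rose and 3 fell for pEpiLC against EpiLC, and 2 fell between pEpiLC and aEpiLC. With each library left out in turn, these counts were 1 to 4 higher and 4 to 5 lower, 1 to 3 and 3 to 5, and 0 and 0 to 3, and the most lower calls in the comparisons of pEpiLC came without pEpiLC replicate 1. Mta3, a scaffold subunit, was lower in each later state than in EpiLC and lowest in pEpiLC, with 161 CPM in EpiLC, 99.6 in aEpiLC (-0.69 ± 0.08, adjusted p = 8.3e-06) and 70.6 in pEpiLC (-0.50 ± 0.11 against aEpiLC, 0.0228). Chd5, a remodelling ATPase, was at 23.1, 11.2 and 8.08 CPM in this order and also passed in all 3 comparisons. Mbd2, a methyl-CpG binding subunit, rose from 6.91 to 10.1 CPM in aEpiLC (0.54 ± 0.13, 0.00415) and to 10.6 in pEpiLC (0.64 ± 0.18, 0.0225, and 0.45 without pEpiLC replicate 1).

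In the SIN3 complex, with 12 genes, 2 rose and 3 fell from EpiLC to aEpiLC, with Sin3b, a scaffold of the complex, at 119 and 85.5 CPM (-0.47 ± 0.09, adjusted p = 0.000525). Ing1, which reads methylated H3K4, was the single SIN3 gene to fall for pEpiLC against EpiLC (-0.23 ± 0.08, 0.0484), while DESeq2 called 2 lower. When pEpiLC replicate 1 was left out, Ing1 missed the threshold (-0.16, 0.0534), and Sin3b was lower (-0.19, 0.0303) and Brms1 (0.24, 0.0202) and Sap18 (0.15, 0.0355) were higher. Without any 1 EpiLC library 0 of the 12 were called for pEpiLC against EpiLC, and 0 to 1 rose from EpiLC to aEpiLC, as did 1 without aEpiLC replicate 3 and 1 by DESeq2. Between pEpiLC and aEpiLC the quasi-likelihood test called 0 of the 12 in either direction (at an unadjusted p under 0.05, 0 higher and 2 lower), and DESeq2 called 1 lower. The 5 CoREST genes gave 0 calls between pEpiLC and aEpiLC (unadjusted, 2 higher and 1 lower) and 0 between aEpiLC and EpiLC, by edgeR or DESeq2. Against EpiLC, Rcor3 rose in pEpiLC (0.63 ± 0.14, 0.00964) and Kdm1a, the H3K4 demethylase LSD1, fell (-0.19 ± 0.06, 0.0258). With single libraries left out 1 to 2 rose and 0 to 2 fell, with 0 lower without any 1 EpiLC library or pEpiLC replicate 3.

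Other complexes that contain RBBP4 or RBBP7 were followed through 9 genes. Of these, 1 rose and 4 fell from EpiLC to aEpiLC, 2 rose and 3 fell for pEpiLC against EpiLC, and 1 rose and 1 fell between pEpiLC and aEpiLC. Between pEpiLC and aEpiLC 0 were called without any 1 aEpiLC library or pEpiLC replicate 3, and 1 rose and 0 fell without pEpiLC replicate 2. The numbers that rose changed to 2 from EpiLC to aEpiLC without aEpiLC replicate 3 and to 1 for pEpiLC against EpiLC without EpiLC replicate 3. Hat1, the acetyltransferase that works with RBBP7 on new histone H4, fell from 306 CPM in EpiLC to 239.9 in aEpiLC (-0.35 ± 0.06, adjusted p = 0.000362) and 231 in pEpiLC (-0.38 ± 0.07, 0.00412). Smarca1, the remodelling ATPase SNF2L, was at 25.1 CPM in EpiLC, 51.1 in aEpiLC (1.03 ± 0.07, 1.27e-07) and 37.5 in pEpiLC (0.60 ± 0.12 against EpiLC, 0.00512). Bptf, the large subunit of NURF, fell from 507 CPM in EpiLC to 315 in pEpiLC (-0.66 ± 0.11, 0.00321). Lin9, a subunit of the cell cycle complex MuvB, was lower in aEpiLC (24.6 CPM) than in EpiLC (32.6, -0.40 ± 0.08, 0.000923) and pEpiLC (32.4, 0.40 ± 0.09, 0.0233).

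The enzymes that reverse or parallel the work of these complexes completed the lists. Kdm6b, an H3K27 demethylase, fell from 103 CPM in EpiLC to 66.3 in aEpiLC (-0.63 ± 0.07, adjusted p = 1.42e-05) and 76.1 in pEpiLC (-0.41 ± 0.07, 0.00287), and its relative Kdm6a passed in no comparison. Hdac3, the class I deacetylase of the NCoR complex, rose from 71.1 CPM to 82.6 in aEpiLC (0.22 ± 0.07, 0.0139) and 88.7 in pEpiLC (0.34 ± 0.06, 0.00371). Hdac8 rose from 9.06 to 13.1 CPM in aEpiLC (0.53 ± 0.12, 0.00211). Of these 2 increases in aEpiLC, 1 was lost without EpiLC replicate 2. Hdac8 was lower in pEpiLC than in aEpiLC (-0.49 ± 0.12, 0.0299), a call that held without pEpiLC replicate 1 and was lost without any other 1 of the 6 libraries.

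**Figure D5:**
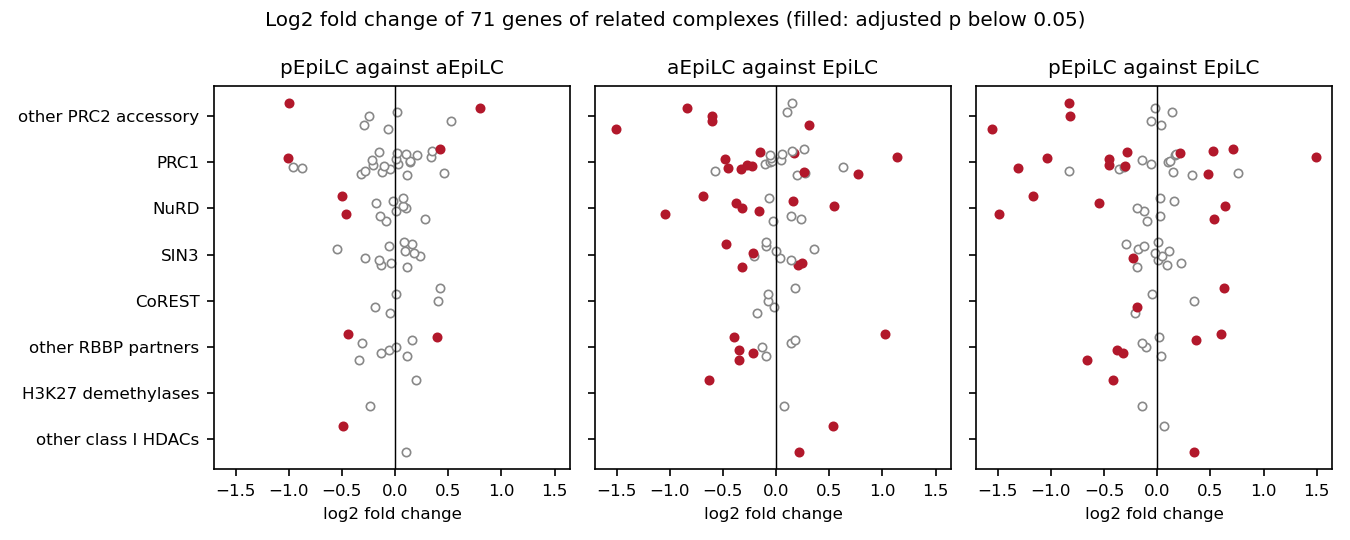
Log2 fold change (x axis) of 71 genes of related complexes, 1 point a gene, in rows by complex (y axis) and 1 panel for each comparison, filled where the adjusted p was below 0.05. In the panel of pEpiLC against aEpiLC 9 points are filled, and 35 are for aEpiLC against EpiLC and 29 for pEpiLC against EpiLC.

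Proliferation genes were listed too, since cells that cycle carry more Ezh2. Of 20 listed, 1 rose and 10 fell from EpiLC to aEpiLC, and 1 rose and 8 fell for pEpiLC against EpiLC, with a summed level of 6836 to 6998 CPM in EpiLC, 5904 to 6257 in aEpiLC and 6231 to 6618 in pEpiLC. Against EpiLC, 5, 4 and 5 fell in pEpiLC without EpiLC replicates 1, 2 and 3, and 6 to 9 without 1 of the pEpiLC libraries. The number that rose was 2 without pEpiLC replicate 1, where Mcm5 was called (0.17, adjusted p = 0.00696), and 1 without any other. E2f1 fell from 32.8 CPM in EpiLC to 21.6 in aEpiLC (-0.60 ± 0.08, adjusted p = 6.4e-05) and Ccne1 from 199 to 140.2 CPM (-0.50 ± 0.07, 6.99e-05), while Mki67 rose from 368 to 476 CPM (0.37 ± 0.08, 0.00145). Between pEpiLC and aEpiLC the quasi-likelihood test called 0 of the 20 (2 higher and 0 lower at an unadjusted p under 0.05), and DESeq2 called 1 higher. The share of mitochondrial reads was 1.55 to 1.71% in EpiLC and 2.17 to 2.45% in the other 6 libraries. The summed level of 8 naive pluripotency markers was 37.2 to 40.8 CPM in EpiLC, 20.2 to 22.1 in aEpiLC and 24.1 to 28 in pEpiLC, without overlap. Zfp42 was the largest part of this sum, with means of 19.1, 7.61 and 11.2 CPM in the 3 states. From EpiLC to aEpiLC 4 of the 7 tested fell and 1 (Klf2) rose, beside 22.6% and 24% of all genes. For pEpiLC against EpiLC 3 of 8 fell and 0 rose, beside 21.4% and 22.8%. Zfp42 and Nr0b1 fell in both. Between pEpiLC and aEpiLC 2 of 6 rose and 2 fell, beside 6.28% and 9.3%. Esrrb rose there (1.52, adjusted p = 0.00252) and was not called against EpiLC (0.44, 0.0764). The part of any of these measures in the values of the 10 genes was not tested.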

How the data were processed

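Bulk RNA-seq was analysed in 9 libraries, 3 each of EpiLC, aEpiLC and pEpiLC, grouped by their labels. Per the submitters' processing notes, reads were mapped to GRCm38 (mm10) with STAR 2.7.9a and quantified with RSEM 1.3.1. The deposited values are estimated counts (RSEM expected counts) per gene symbol, not normalized by the authors, and were rounded here to whole numbers. RSEM shares ambiguous reads among similar genes. Counting error alone is small at these depths (20560583 to 23417935 counts).

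Each pair of states was fitted on its own 6 libraries with edgeR 4.0.16 (R 4.3.3): filterByExpr, TMM normalization and the quasi-likelihood test, with Benjamini-Hochberg adjustment over all genes tested and a limit of 0.05. Intervals are at 95%. Ratios had 0.5 added to each count and were tested by exact permutation. The procedure was tested on simulated data. Alternatives were RLE size factors, DESeq2 1.42.0, edgeR's likelihood ratio test, no filter, all 9 libraries in one fit, the replicate number as a block, each replicate left out, a fold limit and other gene lengths. Positions came from GENCODE vM21 on GRCm38, similar transcripts (at least 90% identity over 150 bp) from blastn 2.17.0+ and promoters from RefSeq on GRCm38.p6. The aligner's annotation and library strandedness are not given in the sources used here.

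The 10 genes, the lists and the tests were chosen with earlier results of these data known. All 10 were named. A rule picked from the listed genes up to 2 per list, comparison and direction. These had the largest absolute log2 fold change among those that passed with a mean of at least 5 CPM. Not all genes picked were named. Kdm6a and the cell type markers were named outside this rule, as were Cbx2, Sap18 and Mcm5 for calls made without pEpiLC replicate 1. The nearest genes in profile were limited to 5 each for Rbbp7 and Ezh2.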

Additional observations from a re-analysis of the deposited data

How the results depend on the processing

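The increase of Rbbp7 in pEpiLC passed in 12 of 12 alternatives in both comparisons, with log2 fold changes of 1.01 to 1.13 against aEpiLC and 1.12 to 1.25 against EpiLC. Jarid2 passed in 11 of 12 against aEpiLC and 12 of 12 against EpiLC, Mtf2 and Suz12 in 12 of 12 for aEpiLC against EpiLC, and Mtf2 in 12 of 12 for pEpiLC against EpiLC. Suz12 between pEpiLC and aEpiLC passed in 8 of 12 (adjusted p 0.00381 to 0.102), Rbbp4 for pEpiLC against EpiLC in 5 (0.0264 to 0.153) and Eed for aEpiLC against EpiLC in 4 (0.00964 to 0.208). No called gene changed sign. With each replicate left out in turn, 1 to 2 of the 10 genes were higher and 0 to 1 lower between pEpiLC and aEpiLC, and over all genes 278 to 1365 were higher and 496 to 1975 lower, against 955 and 1414 with all libraries. The highest of these counts, 1365 and 1975, came without pEpiLC replicate 1, so fewer libraries did not always go with fewer calls. Why the counts moved was not tested. In 1 fit of all 9 libraries, 1465 genes were higher and 1969 lower. When a change of 1 or more on the log2 scale was also required, 1 gene of the 10 was higher and 0 lower between pEpiLC and aEpiLC, 0 were lower for aEpiLC against EpiLC and 0 were lower for pEpiLC against EpiLC. Of the 10 ranks per length, 4 stayed the same with the longest transcript and 3 with the longest coding sequence. Adding no count to the ratios changed no difference by as much as 1 SD.

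The replicate numbers are shared by the states, but samples of the same number did not deviate together throughout. Their correlations across genes were 0.17, 0.12 and 0.06 between pEpiLC and aEpiLC, 0.02, -0.06 and -0.06 between aEpiLC and EpiLC, and 0.03, 0.03 and 0.02 between pEpiLC and EpiLC. Between pEpiLC and aEpiLC each sample correlated best with its own number, which is a hint from the data and not from the design. With the replicate number as a block, 2 of the 10 genes were higher and 1 lower between pEpiLC and aEpiLC, 0 higher and 2 lower for aEpiLC against EpiLC (Eed at an adjusted p of 0.0551), and 1 higher and 2 lower for pEpiLC against EpiLC (Rbbp4 at 0.106).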
